A study of Mus musculus with 28 samples.

Results

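In cultured 3LL lung cancer cells, 4 genes with a symbol, among 18509 such rows in a table of 43143, had a lower level after loss of KEAP1 (KEAP1-KO) and a higher one again after loss of both KEAP1 and NRF2 (DKO), by more than 2 on the log2 scale in both steps: Bmp7, Clu, Zfp608 and Inpp4b. The members were thus chosen by their values in cultured cells, and these values are given as a description, without a test. The tumors grown from the same cells are no term of that rule and were tested. All values are log2(normalized count + 4), so that a row without reads stands at 2.

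The 28 RNA-seq libraries fell into 7 groups of 4. Cultured 3LL cells, a Lewis lung carcinoma line of male origin, were WT, KEAP1-KO or DKO. In Experiment A, WT cells were placed under the skin of the left flank and KEAP1-KO cells under that of the right flank of male albino C57BL/6 mice that were 6 weeks old. In Experiment B, the left flank received KEAP1-KO and the right flank DKO cells, and tumors of both experiments were taken after 10 days. KEAP1-KO cells carry a Cas9 edit in Keap1, and DKO cells were made from them by a further edit in Nrf2 (Nfe2l2), so that KEAP1-KO and DKO cells share the Keap1 edit. Both edited lines were grown from single colonies, and differences between genotypes are therefore also differences between clones. The hosts had an intact immune system, and a tumor library holds RNA of host cells as well as of cancer cells. Nothing in the labels says that the 4 libraries of a cell group were separate cultures, so that the spread between them may be technical. The extraction text in the labels names liver, whereas titles and methods name tumors and cells, and the latter were followed.

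KEAP1 is the adaptor that marks the transcription factor NRF2 for degradation, and its loss leaves NRF2 active. NRF2 is best known for raising genes of glutathione synthesis and detoxification, and genes that fall when it is active are described less often. BMP7 is a secreted ligand of the BMP family that signals through Smad proteins, clusterin (Clu) is a secreted chaperone that binds misfolded proteins outside the cell, INPP4B removes a phosphate from PI(3,4)P2 and so limits PI3K signaling, and ZFP608 is a zinc finger protein.

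The genotypes were visible in the table. Nqo1, a detoxifying quinone reductase and NRF2 target, stood at 9.01 ± 0.11 (SD, n = 4) in WT, 12.45 ± 0.11 in KEAP1-KO and 6.77 ± 0.09 in DKO cells. The Keap1 row stood at 9.45 ± 0.09, 7.59 ± 0.07 and 7.35 ± 0.08 in the same groups. The Nfe2l2 row, a processed transcript of the gene for NRF2, stood at 5.32 ± 0.22, 4.84 ± 0.25 and 5.06 ± 0.40 in WT, KEAP1-KO and DKO cells, and does not check the second edit. Of 15 listed NRF2 targets, 15 were higher in KEAP1-KO tumors than in their WT partners (5.61% of all rows tested) and 15 lower in DKO tumors than in their KEAP1-KO partners (4.64% of all rows), with a limma adjusted p under 0.05.

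Each member was present as a transcript rather than as a whole gene, and the transcript decides what the value stands for. In the GENCODE vM21 annotation (build GRCm38, not the release that the paper names), the Bmp7 row is Bmp7-202 (ENSMUST00000137247), a transcript of 980 bases that ends in a retained intron. The gene lies on the minus strand at chr2:172868012-172940321, and the transcript covers chr2:172916118-172940092 in 2 exons. It shares 631 bases (64.4%) with the coding transcript Bmp7-201, and its last 349 bases are intron. The following lines show where the listed transcript leaves the coding one, with the last 30 bases of exon 2 in lower case and the next 30 bases in capitals, which are exon 3 in Bmp7-201 and intron in Bmp7-202.
Bmp7-201: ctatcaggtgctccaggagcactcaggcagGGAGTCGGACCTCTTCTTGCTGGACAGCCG
Bmp7-202: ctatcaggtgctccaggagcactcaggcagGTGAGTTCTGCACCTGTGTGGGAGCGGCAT

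The Clu row is Clu-205 (ENSMUST00000138665), 558 bases in 5 exons at chr14:65968642-65975646 on the plus strand, inside the gene at chr14:65968483-65981547. It is annotated as a target of nonsense-mediated decay. Of its bases, 554 (99.3%) are shared with the coding transcript Clu-201, which is longer, with 1810 bases in 9 exons. The other 4 bases are its own, since its exon with the start codon ends 4 bases further downstream. The 4 extra bases shift the reading frame. The next lines run from the start codon, the first base of which is at position 65971759 of chromosome 14, to the stop codon of Clu-205 after 39 codons, where the frame of Clu-201 goes on to 448 codons. Capitals mark the 4 extra bases and the early stop codon.
Clu-205: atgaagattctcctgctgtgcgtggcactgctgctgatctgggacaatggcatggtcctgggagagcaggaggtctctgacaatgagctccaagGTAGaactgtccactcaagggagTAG
Clu-201: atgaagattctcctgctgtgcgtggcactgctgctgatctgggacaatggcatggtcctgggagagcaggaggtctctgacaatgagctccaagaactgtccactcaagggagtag

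The Inpp4b row is Inpp4b-208 (ENSMUST00000170160), a protein-coding transcript of 2108 bases in 18 exons at chr8:81773113-82069002 on the plus strand. The gene spans chr8:81342556-82127914, so that this transcript starts inside the gene. It shares 2031 bases (96.3%) with Inpp4b-201. The Zfp608 row is Zfp608-204 (ENSMUST00000238150), a processed transcript of 4243 bases without an annotated coding frame, of which 4071 bases (95.9%) are shared with Zfp608-201. Of the annotated transcripts, the table held 1 of 2 for Bmp7, 2 of 9 for Clu, 1 of 15 for Inpp4b and 3 of 4 for Zfp608. It had 0 rows for these genes as a whole. The main coding transcripts Bmp7-201, Clu-201, Inpp4b-201 and Zfp608-201 were not among the rows, so sums over transcripts leave them out. Where transcripts share nearly all of their bases, reads are divided between them by the quantifier's estimate. A value of 1 transcript is then less certain than a sum over transcripts. Of the 43143 rows in all, 34021 are single transcripts, and many genes named below are such rows too.

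Bmp7, the ligand, had normalized counts of 161, 154, 149.5 and 168 in the 4 WT cell libraries. In KEAP1-KO cells they were 7.43, 6.99, 9.43 and 9.85, and in DKO cells 51.8, 69.4, 66.0 and 62.3. As in the other members, every KEAP1-KO library lay under every WT and every DKO library. Over all rows, KEAP1-KO cells lay under WT cells without overlap in 9.66% and DKO cells above KEAP1-KO cells in 6.64%. On the log2 scale the means were 7.34 ± 0.07, 3.63 ± 0.17 and 6.04 ± 0.17 (SD, n = 4), a step of -3.71 from WT to KEAP1-KO and of 2.42 from KEAP1-KO to DKO. The mean normalized count of DKO cells was 39.4% of that of WT cells, so that Bmp7 came back in part. For these 2 steps, 7.33% of the 29744 rows tested in cells were lower in KEAP1-KO cells and 3.98% were higher in DKO than KEAP1-KO cells (limma, adjusted p under 0.05).

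Clu, the chaperone, had the highest level of the members in WT cells, with normalized counts of 309, 264, 282 and 298. In KEAP1-KO cells they were 32.5, 26.2, 29.2 and 40.3, and in DKO cells 133, 147, 152 and 163. The means on the log2 scale were 8.19 ± 0.10, 5.16 ± 0.24 and 7.25 ± 0.12, with steps of -3.03 and 2.09. DKO cells reached 51.6% of the mean normalized count of WT cells. The second Clu transcript in the table, Clu-209 (ENSMUST00000153460, protein coding), was low, with 6 to 10 reads in WT cells, 0 in all 4 KEAP1-KO libraries and 0 to 4 in DKO cells. A library with 0 reads still allows up to 3 reads (2.43 to 3.47 normalized counts, counting error only).

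Inpp4b, the phosphatase, had normalized counts of 140, 110.1, 122 and 118 in WT cells and of 79.2, 73.6, 89.1 and 80.3 in DKO cells. In KEAP1-KO cells 3 libraries had 22.3, 24.5 and 25.5, and replicate 4 had 0. The mean of KEAP1-KO cells was 4.11 ± 1.41 on the log2 scale, and 4.81 without replicate 4. The means of WT and DKO cells were 6.98 ± 0.14 and 6.40 ± 0.11, and the steps were -2.87 and 2.29. Without that replicate they were -2.17 and 1.59, so that 1 library brought Inpp4b past the limit of 2. DKO cells had 65.6% of the mean normalized count of WT cells.

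Zfp608, the zinc finger gene, had the largest SD of the 4 in WT and in DKO cells, while in KEAP1-KO cells Inpp4b had. WT cells had normalized counts of 39.9, 74.5, 61.8 and 39.7, and DKO cells had 93.8, 27.3, 112 and 138. In KEAP1-KO cells replicates 2 and 3 had 7.86 and 13.2, and replicates 1 and 4 had 0. On the log2 scale the means were 5.81 ± 0.42, 2.92 ± 1.08 and 6.40 ± 0.98, with steps of -2.89 and 3.48. Zfp608 was the member whose DKO mean lay above its WT mean, by 0.59, and those libraries overlapped.

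Among the members, Clu lay nearest to the limit of 2, with a smaller step of 2.09. The rows with a symbol just outside it were Rn18s, a ribosomal RNA, with a smaller step of 1.95, and Pck2, with 1.92. Without regard to symbols, 8 of 29744 rows in the cell fit (0.0269%) met the rule (unadjusted p under 0.01 in both steps), and the other 4 were single transcripts of Ankfy1, Gas5, Shc1 and Tia1. With a limit of 1 in place of 2, 51 rows (0.171%) did.

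**Figure D1:**
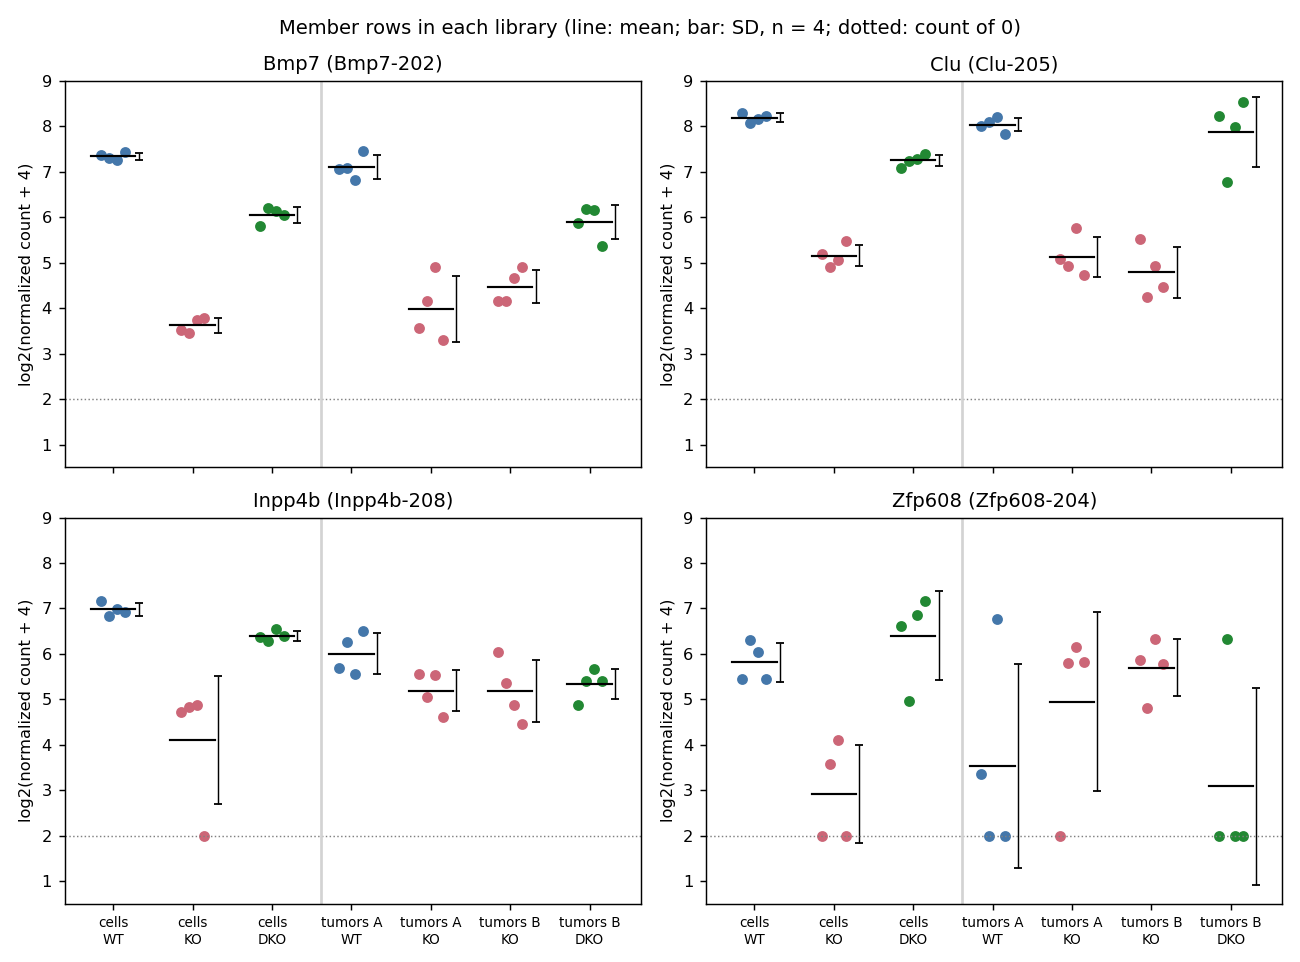
Level of the 4 member rows in each library, as log2(normalized count + 4), in 3 groups of cultured cells and 4 groups of tumors (points: libraries; line: mean; bar: SD, n = 4; dotted line: a count of 0). Bmp7 and Clu are low in every KEAP1-KO group, the Inpp4b values of the tumor groups overlap, and Zfp608 has libraries at 0 in 4 of the 7 groups.

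In WT tumors of Experiment A, Bmp7 had normalized counts of 130.2, 131, 109.7 and 172. KEAP1-KO tumors of the same experiment had 7.78, 13.9, 26.1 and 5.84, so that the highest of them lay far under the lowest WT tumor. The means were 7.11 ± 0.26 and 3.98 ± 0.72 on the log2 scale (SD, n = 4), a difference of -3.13 (SE 0.31, 95% interval -3.78 to -2.48, limma adjusted p = 3.5e-06). In mean normalized counts, WT tumors were 10.1-fold above KEAP1-KO tumors. In Experiment B, KEAP1-KO tumors had 13.96, 13.96, 21.3 and 26.0, and DKO tumors had 54.8, 69.0, 67.2 and 37.5. The means of 4.48 ± 0.37 and 5.90 ± 0.38 differed by 1.42 (SE 0.31, interval 0.77 to 2.07, adjusted p = 0.00664), and every DKO tumor was above every KEAP1-KO tumor.

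Clu followed the same course. WT tumors had normalized counts of 255, 271, 289.7 and 226, and KEAP1-KO tumors of Experiment A had 30.01, 26.6, 50.2 and 22.4. The means of 8.04 ± 0.15 and 5.13 ± 0.45 differed by -2.91 (SE 0.34, interval -3.64 to -2.19, adjusted p = 2.2e-05), and WT tumors were 8.06-fold above KEAP1-KO tumors in mean normalized count. KEAP1-KO tumors of Experiment B had 41.9, 14.9, 26.4 and 18.1, and DKO tumors had 297, 106, 251 and 369. Here the means of 4.79 ± 0.57 and 7.89 ± 0.77 differed by 3.10 (SE 0.34, interval 2.38 to 3.83, adjusted p = 2.1e-05), a ratio of 10.1 in mean normalized count, without overlap. The low transcript Clu-209 was also lower in KEAP1-KO than WT tumors, by -1.55 (adjusted p = 0.00699), with 7 to 17 reads in WT and 0 to 4 in KEAP1-KO tumors. In Experiment B it had 0 reads in all 4 KEAP1-KO tumors and 6, 0, 9 and 9 in DKO tumors, a difference of 1.11 that did not pass (adjusted p = 0.0638).

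Inpp4b did not pass the test in either experiment. WT tumors had normalized counts of 47.6, 72.4, 43.0 and 86.6, and KEAP1-KO tumors of Experiment A had 43.4, 28.9, 42.5 and 20.4. The highest KEAP1-KO tumor was above the lowest WT tumor. KEAP1-KO tumors had a mean of 5.19 ± 0.45 on the log2 scale, and the difference from WT tumors, which had the same SD, was -0.81 (SE 0.32, interval -1.50 to -0.12, unadjusted p = 0.024, limma adjusted p = 0.124). In Experiment B, KEAP1-KO tumors had 61.8, 37.2, 25.4 and 18.1, and DKO tumors had 25.2, 38.1, 47.0 and 38.4. Their means of 5.19 ± 0.68 and 5.34 ± 0.34 differed by 0.15 (interval -0.54 to 0.84, adjusted p = 0.862), and the libraries of the 2 groups were interleaved. Whether the step differs between cells and tumors was not tested, since the cells chose the gene.

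Zfp608 differed in the opposite direction in tumors, without passing the test, and was absent from some libraries of a group and present in others. WT tumors had normalized counts of 6.29, 0, 104 and 0, and KEAP1-KO tumors of Experiment A had 0, 52.0, 66.7 and 52.6. The means of 3.53 ± 2.25 and 4.94 ± 1.97 differed by 1.41 (interval -1.08 to 3.91, adjusted p = 0.52). Leaving out 1 library gave 0.90 to 2.49. All 4 KEAP1-KO tumors of Experiment B had reads, with 53.9, 24.2, 76.1 and 50.9, whereas DKO tumors had 0, 76.2, 0 and 0. The means of 5.69 ± 0.63 and 3.08 ± 2.16 differed by -2.61 (interval -5.11 to -0.12, unadjusted p = 0.0413, limma adjusted p = 0.215). The difference is opposite in sign to that of the cultured cells and missed the threshold.

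The table also held 2 other Zfp608 transcripts, and how reads were divided between the transcripts was not tested. Zfp608-202 (ENSMUST00000237009, retained intron) was present in all 28 libraries, with means of 4.98 ± 0.11 in WT, 4.90 ± 0.11 in KEAP1-KO and 5.72 ± 0.47 in DKO cells. In Experiment A it stood at 5.32 ± 0.35 in WT and 5.80 ± 0.23 in KEAP1-KO tumors, and in Experiment B at 5.43 ± 0.31 in KEAP1-KO and 5.85 ± 0.05 in DKO tumors. Zfp608-203 (ENSMUST00000237844) was at 0 in all 4 WT cell libraries and came and went elsewhere, with 48 reads at most. When the 3 transcripts were added, no library was at 0. The sum stood at 6.40 ± 0.29 in WT, 5.42 ± 0.31 in KEAP1-KO and 7.23 ± 0.29 in DKO cells, with steps of -0.98 and 1.82. Both are under the limit of 2 by which Zfp608-204 was chosen. In tumors the sum was 5.88 ± 0.99 and 6.78 ± 0.68 in Experiment A, a difference of 0.91 (interval -0.02 to 1.83, limma adjusted p = 0.149), and 6.62 ± 0.51 and 6.32 ± 0.55 in Experiment B, a difference of -0.30 (interval -1.22 to 0.63, adjusted p = 0.72).

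**Figure D2:**
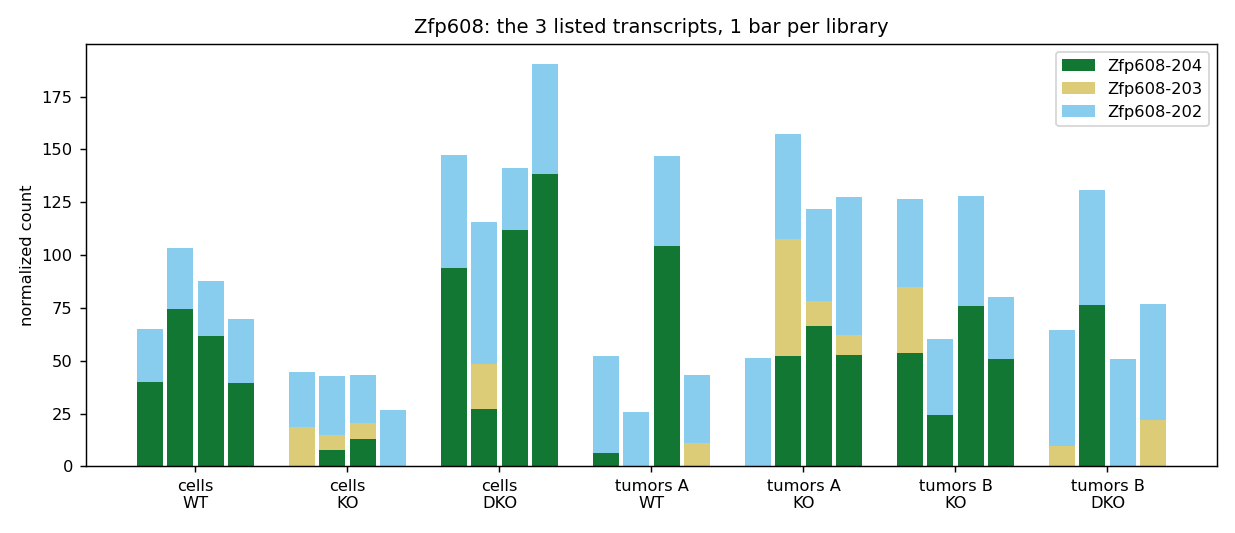
Normalized counts of the 3 listed Zfp608 transcripts, stacked, with 1 bar per library in the 7 groups. The green part (Zfp608-204, the row with the symbol) is absent from 8 of the 28 libraries while Zfp608-202 is present in each.

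In all, 2 of the 4 members, Bmp7 and Clu, passed limma's test as lower in Experiment A, beside 7.49% of the 34215 rows tested, and as higher in DKO tumors of Experiment B, beside 4.22%. Both differences passed in 741 rows (2.17%). The same 2 members had no overlap between the groups in either experiment, beside 9.05% of all rows that were lower without overlap in Experiment A and 7.14% that were higher without overlap in Experiment B. The 2 experiments share no library. The median difference of all rows was -0.03 in Experiment A and 0.00 in Experiment B.

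**Figure D3:**
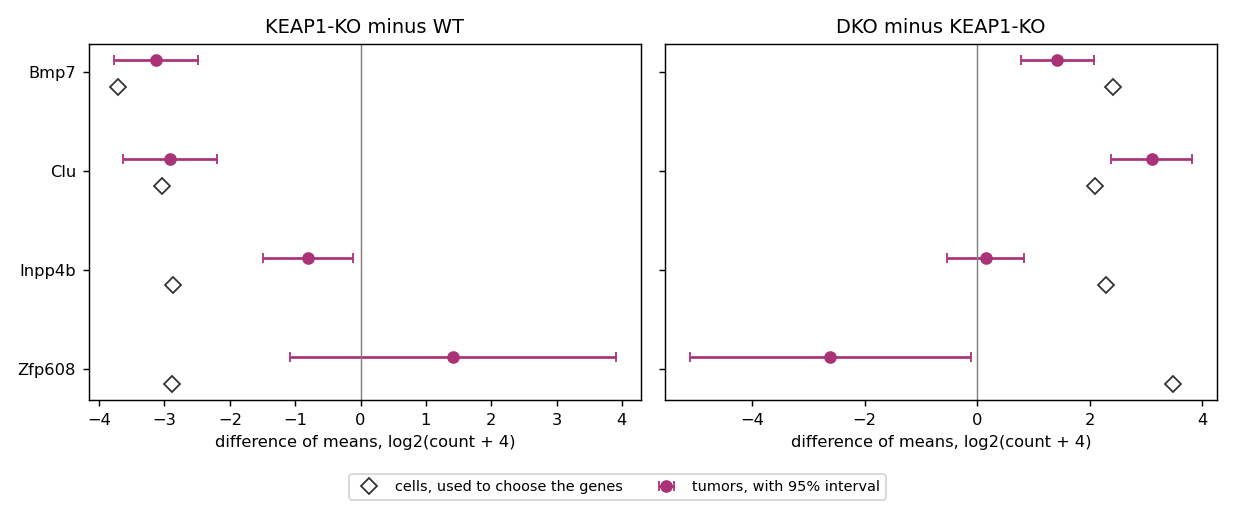
Differences of the 4 members between genotypes on the log2 scale, in tumors (points with 95% intervals from limma, 4 tumors a group) and in cultured cells (diamonds, without interval because they chose the genes). The tumor intervals of Bmp7 and Clu lie on the side of their diamonds in both comparisons, and the tumor means of Zfp608 lie on the opposite side.

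The KEAP1-KO tumors of the 2 experiments allowed the same genotype to be compared in opposite flanks and different mice. None of the 4 members passed (limma; 0 of 4 also at an unadjusted p under 0.05; 0.164% of all rows were called). Experiment B differed from Experiment A by 0.49 in Bmp7 (interval -0.16 to 1.14, adjusted p = 0.751) and by -0.34 in Clu (interval -1.06 to 0.39, adjusted p = 0.862).

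DKO tumors were also set against WT tumors of the other experiment, a comparison in which the genotype cannot be told apart from the experiment and the flank. Bmp7 was lower in DKO tumors by -1.21 (interval -1.86 to -0.56, limma adjusted p = 0.0174; 5.99% of all rows were lower), with no overlap (9.03% of all rows), beside -1.30 between DKO and WT cells. That call was lost without WT replicate 4 (adjusted p = 0.0549) or DKO replicate 4 (adjusted p = 0.059). Clu differed by -0.15 (interval -0.88 to 0.57, adjusted p = 0.849), with DKO tumors at a mean normalized count of 256 and WT tumors at 260.5, whereas DKO cells lay 0.94 under WT cells.

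Ordered by mean, Bmp7 was highest in WT cells and WT tumors, which overlapped, then in DKO cells and DKO tumors, which overlapped, and lowest in KEAP1-KO tumors of Experiment B, of Experiment A and KEAP1-KO cells, each overlapping with the next. Clu was ordered in 2 blocks: WT cells, WT tumors, DKO tumors and DKO cells overlapped from one to the next, and then, after a gap, KEAP1-KO cells and the KEAP1-KO tumors of Experiments A and B. For Inpp4b, WT cells stood alone at the top and every later neighbor overlapped down to KEAP1-KO cells. For Zfp608 every neighbor overlapped, from DKO cells at the top to KEAP1-KO cells at the bottom.

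Marker genes of host and other cell types also differed between the tumor groups. All 6 listed leukocyte genes (Ptprc, which encodes CD45, Cd52, Coro1a, Laptm5, Cd53 and Itgb2) were lower in KEAP1-KO than WT tumors and higher in DKO than KEAP1-KO tumors (limma, adjusted p under 0.05). Their summed normalized count ranged from 2072 to 2570.1 in WT, 516 to 597 in KEAP1-KO (Experiment A), 795 to 1009 in KEAP1-KO (Experiment B) and 1513 to 2218 in DKO tumors. In cultured cells it was 18.3 to 25.8 in WT, 37.7 to 51.5 in KEAP1-KO and 6.3 to 21.0 in DKO cells. The Ptprc row (Ptprc-201, a retained intron) was at 0 in all DKO cell libraries. Of 5 neutrophil genes tested, 4 were lower in KEAP1-KO tumors and 1 was higher in DKO tumors, and of 7 endothelial genes none was called in either comparison (limma; 0 and 1 at an unadjusted p under 0.05). Of 3 T and NK cell genes tested, Cd4 and Gzma were lower in KEAP1-KO tumors, by -1.65 (adjusted p = 0.00226) and -1.84 (adjusted p = 9.1e-04), and none was called in Experiment B (1 at an unadjusted p under 0.05). Of 3 skeletal muscle genes tested, Acta1 and Myh1 were higher in DKO than KEAP1-KO tumors, by 2.96 (adjusted p = 0.0161) and 2.70 (adjusted p = 0.0378), with a summed count over the listed muscle genes of 21.3 to 403 in DKO and 11.2 to 54.2 in KEAP1-KO tumors. Of 4 epithelial genes tested, Cdh1, the adhesion protein E-cadherin, was lower by -1.12 in KEAP1-KO tumors (adjusted p = 0.0425) and higher by 1.40 in DKO tumors (adjusted p = 0.0171), with means of 2.18 to 2.40 in the groups of cells. Krt18, a keratin, was lower in both steps, by -0.97 (adjusted p = 0.00275) and -1.09 (adjusted p = 0.00167). Of 5 proliferation genes, Ccnb1 and Pcna were lower in KEAP1-KO tumors, by -0.69 (adjusted p = 0.0111) and -0.75 (adjusted p = 4.8e-04), and none was called in Experiment B (1 at an unadjusted p under 0.05). Of the 10 macrophage genes, 9 were lower in KEAP1-KO tumors (Experiment A), while 6 were higher in DKO than KEAP1-KO tumors. Of the 8 fibroblast genes, 2 were lower in KEAP1-KO tumors (Experiment A) and 3 higher in DKO tumors (Experiment B), and their sum, which was 374 to 723 over all cultured cells, was 4862 to 12252 in WT, 1983 to 4854 and 2860 to 3593 in KEAP1-KO (Experiments A and B) and 10804 to 14695 in DKO tumors. Bmp7 and Clu stood at 7.34 and 8.19 in WT cells, values that were used to choose them, and at 7.11 and 8.04 in WT tumors. In bulk tumors, fewer cells of a type and less RNA per cell cannot be told apart, and the part of host cells in the tumor differences of Bmp7 and Clu was not tested.

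**Figure D4:**
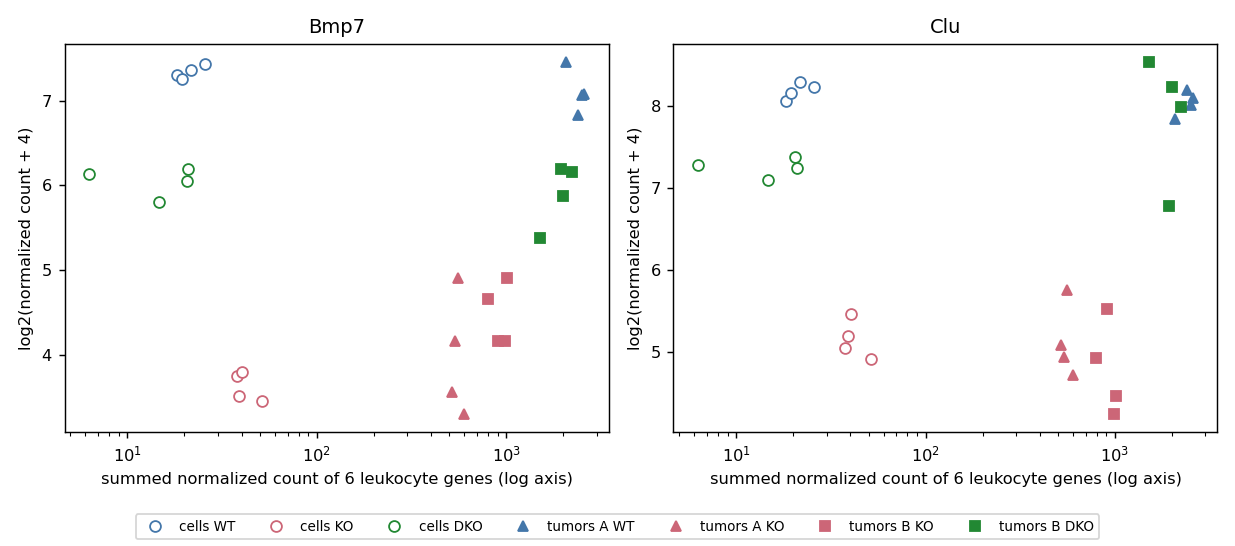
Level of Bmp7 and Clu (vertical axis, log2) against the summed normalized count of 6 leukocyte genes (horizontal log axis), with 1 point per library; open points are cultured cells, triangles tumors of Experiment A and squares tumors of Experiment B. The leukocyte sum is at most 51.5 in cultured cells, whose Bmp7 and Clu values were used to choose the genes, and at least 516 in tumors.

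Of 10 BMP and GDF ligands, 3 were in the table and tested in tumors, Bmp7 among them. Bmp6, a related ligand (Bmp6-203, a processed transcript), went the opposite way to Bmp7, higher in KEAP1-KO than WT tumors by 1.65 (limma adjusted p = 3.5e-06) and lower in DKO than KEAP1-KO tumors by -1.52 (adjusted p = 1.5e-05). In cells Bmp6 was higher by 1.16 in KEAP1-KO than WT (adjusted p = 8.7e-06) and lower by -1.13 in DKO than KEAP1-KO (adjusted p = 1.7e-05). Of 5 receptors tested, Acvrl1, a receptor of endothelial cells, was lower in KEAP1-KO than WT tumors by -0.81 (adjusted p = 0.00135), and none passed in Experiment B (0 also at an unadjusted p under 0.05). None of the 3 secreted or membrane antagonists tested passed in either tumor comparison (0 also at an unadjusted p under 0.05). In cells the antagonist Grem1 was higher by 3.22 in DKO than KEAP1-KO (adjusted p = 6.4e-11), after a difference of -0.16 between KEAP1-KO and WT that did not pass (adjusted p = 0.249). Of 7 Smads and targets tested, Id2, which BMP signals raise in many cells, was lower by -0.52 in KEAP1-KO tumors (adjusted p = 0.0333) and higher by 0.85 in DKO tumors (adjusted p = 0.0017), and Smad7, an inhibitor, was higher by 0.38 in KEAP1-KO tumors (adjusted p = 0.0117). In cells Id2 was lower in both steps, by -0.34 (adjusted p = 0.0283) and -0.46 (adjusted p = 0.00865). The BMP targets Id1, at -1.18 (adjusted p = 2.8e-06) and -0.53 (adjusted p = 0.00307), and Id3, at -2.44 (adjusted p = 6.3e-07) and -1.65 (adjusted p = 3.2e-05), were also lower in both steps in cells, and did not come back in DKO cells.

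Among 10 receptors of clusterin and other extracellular chaperones, 7 were tested in tumors. In KEAP1-KO tumors 4 were lower than in WT tumors and 1 higher, and the largest differences were those of Trem2, a receptor of macrophages, at -1.79 (adjusted p = 1.3e-04) and Apoe, a lipid carrier, at -1.68 (adjusted p = 0.0152). In DKO tumors Lrp1 and App were higher than in KEAP1-KO tumors, by 1.19 (adjusted p = 7.8e-08) and 0.57 (adjusted p = 0.00633), and Lrp2 was lower by -1.72 (adjusted p = 1.5e-06). Neither Trem2 nor Apoe reached the filter in cultured cells, where Apoe had no reads. The median of the list was -0.78 in KEAP1-KO against WT tumors and -0.09 in DKO against KEAP1-KO tumors, beside -0.03 and 0.00 over all rows.

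Inpp4a, the paralog of Inpp4b with the same enzymatic activity, passed in tumors where Inpp4b did not. Its row (Inpp4a-212, a retained intron) was lower by -1.54 in KEAP1-KO than WT tumors (adjusted p = 3.1e-05) and higher by 0.89 in DKO than KEAP1-KO tumors (adjusted p = 0.00595). In cultured cells it was near 0 reads, at 2.17, 2.15 and 2.08 in WT, KEAP1-KO and DKO cells. Of the 13 phosphoinositide phosphatases tested, Inpp5a at -0.74 (adjusted p = 0.00934) and Synj1 at -0.67 (adjusted p = 0.0108) were also lower in KEAP1-KO tumors. Of 18 PI3K subunits and effectors, 4 were lower and 1 higher in KEAP1-KO tumors, with the largest differences in Pik3cg, the leukocyte-rich catalytic subunit, at -2.21 (adjusted p = 6.4e-05) and in Sgk1, an effector kinase, at 2.21 (adjusted p = 0.0486). In DKO tumors Pik3cg and the regulatory subunit Pik3r1 were higher, by 0.98 (adjusted p = 0.046) and 0.79 (adjusted p = 1.7e-04).

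Beside Zfp608, a list of 10 genes held its paralog Zfp609 and the cohesin complex with its loaders. Smc3, a core subunit of cohesin, was lower by -0.67 in KEAP1-KO than WT tumors (adjusted p = 5.6e-05) and lower again by -0.66 in DKO than KEAP1-KO tumors (adjusted p = 1.3e-04), and Stag1 was lower by -0.46 in KEAP1-KO tumors (adjusted p = 0.0464) and the loader subunit Mau2 by -0.26 in DKO tumors (adjusted p = 0.0271). Zfp609 did not pass in either experiment or in cells, where its differences were 0.02 and -0.15.

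The rows most like each member were found by Pearson's r over rows with a symbol, as a description in which group means and host-cell content are shared by all points. Over the 28 libraries these were Arhgap6 (r = 0.92), Lbh (0.90) and Vegfd (0.90) for Bmp7, and Naaa (0.91), Vegfd (0.90) and Prnp (0.90) for Clu. For Inpp4b they were Pskh1 (0.81), Zfp114 (0.77) and Tcf12 (0.72), and for Zfp608 they were 6030458C11Rik (0.66), Gpatch11 (0.64) and Atxn2l (0.62). Bmp7 and Clu had r = 0.89 with each other over the 28 libraries and 0.84 over the 16 tumors. The cell values that chose the members enter every r over the 28 libraries, so a high r there is partly set by the rule. Over the 16 tumors alone, Bmp7 was most like Rac2 (0.97), Was (0.95) and Cass4 (0.94), of which Rac2 and Was are best known in leukocytes. Clu was most like Ext2 (0.96), Hopx (0.96) and Dpt (0.96). In WT cells Was stood at 2.17, near 0 reads, Rac2 at 5.35 and Cass4 at 6.41. Ext2, Hopx and Dpt stood at 10.34, 9.01 and 5.05 in WT cells. Inpp4b was then most like Zfp114 (0.83), Tacc1 (0.83) and Sap18 (0.82), and Zfp608 most like Ndufb2 (0.81), Pcgf3 (0.78) and Klhl7 (0.78). Bmp7 and Zfp608 had r = -0.36 over tumors, and Clu and Zfp608 r = -0.57.

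The 4 rows without a symbol that shared the cell pattern did not repeat it in tumors as Bmp7 and Clu did. Ankfy1-202 was higher by 0.49 in DKO tumors of Experiment B (adjusted p = 0.0191), and its difference of -0.24 in Experiment A did not pass (adjusted p = 0.265). Shc1-207 (-0.47 and -0.02), Tia1-205 (2.27 and -0.01) and Gas5-201 (0.15 and -1.74) did not pass in either comparison. Of the 51 rows past a limit of 1 in cells, 28 with a symbol, 16 were lower in KEAP1-KO tumors of Experiment A, 20 were higher in DKO tumors of Experiment B and 15 were both, where 2.17% of all rows were both. The median differences of the 51 rows were -0.48 in Experiment A and 0.66 in Experiment B.

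**Figure D5:**
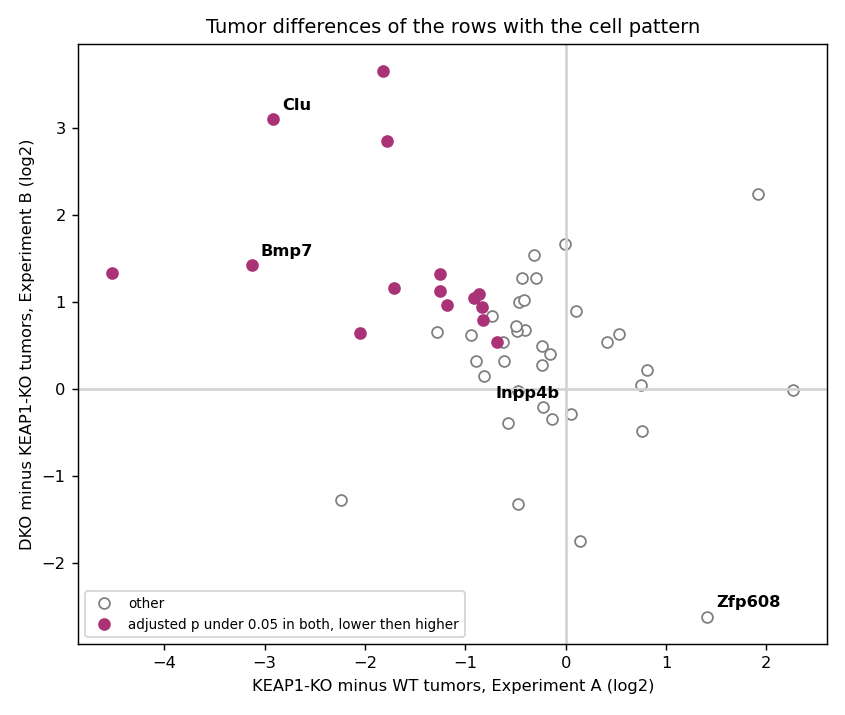
Tumor differences on the log2 scale of the 51 rows with the cell pattern at a limit of 1, Experiment A on the horizontal and Experiment B on the vertical axis; filled points passed limma in both with the direction seen in cells. Bmp7 and Clu are among the 15 filled points, and Inpp4b and Zfp608 are not.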

How the data were processed

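The table held 28 RNA-seq libraries, 16 from tumors and 12 from cultured cells, which were grouped by their titles; it had 0 further columns of values. Per the methods, the authors removed rRNA, made strand-specific paired-end libraries and quantified them with Salmon against GENCODE mouse transcripts. The deposited log2 values equal log2(normalized count + 4): once the transform was undone, each library had 1 factor that turned 100% of its values under 30 reads into whole reads, within 0.05 of a read. The methods speak of TPM, which the planned design allowed for; since the values are logs of normalized counts, limma was run on them and no count model was. The filter and normalization behind the table are not given in the sources used here. Recovered depth was 4222372 to 7524280 reads per library (median 5619789), and 13.95% to 23.47% of the rows had 0 reads in a library. Differences that involve values near the floor of 2 are understated.

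A row entered a fit when 4 or more of its libraries had 5 or more normalized counts. Two-sided tests used limma (version 3.58.1, under R version 4.3.3; functions lmFit and eBayes, the latter with a mean trend), with Benjamini-Hochberg adjustment and a threshold of 0.05. The 16 tumors shared 1 fit (34215 rows) and the 12 cell libraries another (29744 rows). All 4 member rows passed the filter in both. Tested on simulated data of the Experiment A comparison, the tumor fit recovered 31% of changes of 1 and 83% of changes of 2 on the log2 scale, with 7.32% false calls; the cell fit recovered 25% and 73% in KEAP1-KO against WT cells, with 8.41% false. The members and gene lists were chosen with earlier results of these data known, tumors included; the rule for the members uses cell values only. The genes named were the members, Keap1, Nfe2l2 and Nqo1, those called in a tumor comparison in each pathway list (where over 4 were, the 2 with the largest difference), the 3 rows most like each member, and the rows that share the cell pattern. Pck2 and Rn18s, the rows next to the limit, Zfp609, Grem1, Id1, Id3, the T cell, muscle, epithelial and proliferation genes and the further transcripts of Clu and Zfp608 were added after their values were seen. One gene that the rule names is not reported here.

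Transcripts, coordinates and sequences came from GENCODE vM21 (GRCm38), which held 41355 of the 43143 rows. Python 3 scripts drew the figures. Alternatives were another pseudocount, filters, normalizations, fits, a replicate block and each library left out.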

Additional observations from a re-analysis of the deposited data

Results flagged for a closer look

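Dixon's 95% limit (gap over range) was applied to 46 groups of 4 libraries over the 7 listed transcripts of the members. In 8 groups 1 library lay further from the others than it allows. The limit is set for about 1 in 20 groups of normal values. Several groups had libraries tied at the floor of 2, so 8 of 46 cannot be set against that rate. The log2 value is given for each of the 8. At the floor of 2 were Inpp4b-208 in KEAP1-KO cells (replicate 4, value 2.0), Clu-209 in DKO tumors (replicate 2, value 2.0) and Zfp608-204 in KEAP1-KO tumors of Experiment A (replicate 1, value 2.0). Above their groups were Zfp608-204 in DKO tumors (replicate 2, value 6.33) and Zfp608-203 in DKO cells (replicate 2, value 4.64), WT tumors (replicate 4, value 3.91) and KEAP1-KO tumors of Experiment B (replicate 1, value 5.13). Zfp608-202 in DKO tumors (replicate 3) was low at 5.78 in a group with an SD of 0.05. Of the 8, 6 were in the 3 Zfp608 transcripts, where the sum over transcripts has no library at 0.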

How the results depend on the processing

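The lower Bmp7 and Clu in KEAP1-KO tumors and the higher Bmp7 and Clu in DKO tumors kept their direction and their adjusted p under 0.05 in all 19 alternatives run for each. Leaving out 1 library gave -3.44 to -2.90 for Bmp7 and -3.13 to -2.78 for Clu in Experiment A, and 1.32 to 1.60 and 2.88 to 3.47 in Experiment B. The labels do not say whether tumors with the same number came from the same mouse, and the main fit does not pair them. Same-number correlations of the deviations were -0.03 to 0.03, which cannot show whether the numbers mark the mouse. In limma with a replicate block, Bmp7 in Experiment B had an adjusted p of 0.0405, beside 0.00664 without the block. Of 303 alternatives over 16 member results, 290 kept direction and side of the threshold, 11 changed sign and 2 lost the call.

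The 2 lost calls were Bmp7, DKO against WT tumors, with -1.31 to -1.04 when 1 library was left out. Sign changes occurred only in differences that did not pass. Leaving out 1 library gave -0.0925 to 0.43 for Inpp4b in Experiment B, -0.29 to 0.24 for Inpp4b and -0.23 to 1.15 for Zfp608 between the KEAP1-KO tumors, and -0.37 to 0.22 for Clu and -1.53 to 0.63 for Zfp608 between DKO and WT tumors. Rescaling without the 20 highest rows turned Inpp4b between KEAP1-KO tumors to 0.0170, and adding the transcripts of Zfp608 turned it to -0.16 there and to 0.45 between DKO and WT tumors; this last setting, and rows with a symbol only, were chosen after seeing the data. A pseudocount of 0.4 moved Zfp608 in Experiment B to -5.01. The causes were not tested.

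The 8 rows with the cell pattern became 51 at a limit of 1, 26 with a pseudocount of 0.4, where Inpp4b was not among them, and 8 to 19 without 1 library (19 without KEAP1-KO replicate 1, and 14 without each of replicates 2, 3 and 4 of KEAP1-KO cells, with Inpp4b lost without replicate 4). Zfp608 between DKO and WT tumors could not be fitted from the 2 groups alone, since it failed the filter. Clu-209 and Zfp608-203 had fewer than 10 reads in many libraries, so their values are uncertain.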
